A study of Mus musculus with 10 samples.

Results

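Connexins are the subunits of gap junctions, and pannexins are related subunits of membrane channels. The 7 genes described here are Gja1, Gja4, Gja5, Gjb2, Gjc1 and Gjc3, which encode connexins, and Panx1, which encodes a pannexin. They are 7 of the 55487 genes in the count table, and 7 of the 23 genes whose symbols mark them as connexins (20 genes) or pannexins (3 genes). The 7 genes were selected by symbol with their read counts in all 10 ovaries and earlier results from the same ovaries known. All 3 comparisons between groups therefore count as used in the selection, and the differences of the 7 genes are given as a description, without p values. The rule holds no limit on level or change.

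The RNA of whole ovaries of C57BL/6J mice was sequenced, 1 library per ovary, and the study asked what CEFFE does to the aged ovary. CEFFE is a cell-free protein extract of fat tissue. The Control group (n = 4) comprised mice aged 8 weeks, and the Aged (n = 3) and Aged+CF (n = 3) groups comprised mice aged 11 months by the labels and 10 months by the methods of the study. CEFFE was given to the Aged+CF mice intravenously (200 μL a dose at 3 μg/μL, repeated every 2 days over 2 weeks), and saline to both other groups. All mice had been given 10 IU of PMSG, a gonadotropin that makes follicles grow, 48 h before collection, so no group shows the ovary without gonadotropin. Aged+CF and Control differ in both age and CEFFE, and each pair of comparisons shares a group of ovaries. Between 15761789 and 21318254 reads were counted per ovary. Markers of oocytes, granulosa cells and theca cells were counted in all 10 ovaries, except Figla, which had no read in 1 Aged ovary. Across all tested genes, Aged replicates 33 and 34 lay farthest from the mean of their group, with root mean square deviations of 0.552 and 0.627 on the log2 scale against 0.292 to 0.396 in the other 8 ovaries.

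Gap junctions couple granulosa cells to each other and, through fine projections across the zona pellucida, to the oocyte. Small molecules pass through them, among them the cGMP that keeps cAMP high in the oocyte and so holds meiosis in arrest. Gja1 encodes Cx43, the main connexin between granulosa cells, and Gja4 encodes Cx37, which is needed for the channels between oocyte and granulosa cells. Gja5 (Cx40) is best known from arterial endothelium, Gjc1 (Cx45) from smooth muscle and the conduction system of the heart, Gjb2 (Cx26) from epithelia and the cochlea, and Gjc3 (Cx29) from myelinating glia. Panx1 forms single-membrane channels that release ATP.

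The positions of the 7 genes are given on GRCm38 with the GENCODE M21 annotation. Gja1 (ENSMUSG00000050953) lies at chr10:56377330-56402513 on the plus strand and Gja4 (ENSMUSG00000050234) at chr4:127311421-127314039 on the minus strand. Gja5 (ENSMUSG00000057123) lies at chr3:96904693-97077416 on the plus strand, Gjb2 (ENSMUSG00000046352) at chr14:57098600-57104702 on the minus strand and Gjc1 (ENSMUSG00000034520) at chr11:102799579-102819700 on the minus strand. Gjc3 (ENSMUSG00000056966) lies at chr5:137953461-137963098 and Panx1 (ENSMUSG00000031934) at chr9:15002128-15045478, both on the minus strand. The coding sequence lay in 1 exon in Gja1, Gja4, Gjb2 and Gjc1 and in 2 exons in Gjc3. Depending on the transcript, it lay in 1 or 2 exons in Gja5 and in 1 to 5 exons in Panx1. Of the 7 genes, only Gja5 overlapped other annotated genes, all on the opposite strand. The most read of them was Gpr89, with 5552 reads over the 10 ovaries, and strand use in counting is not stated, so the level of Gja5 may hold reads of these genes.

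The 250 bases before the annotated start are shown for 3 of the genes, namely Gja1 for its high level, and Gjc3 and Panx1 as the 2 genes whose level in Aged passed the thresholds against Control. They are read 5′ to 3′ on the strand of the gene, from the RefSeq promoter table on GRCm38.p6, at chr10:56377050-56377299 for Gja1, chr5:137963099-137963348 for Gjc3 and chr9:15045479-15045728 for Panx1. Capitals mark matches to an AP-1 motif in Gja1 and to a CCAAT box in Gjc3 and Panx1.
Gja1: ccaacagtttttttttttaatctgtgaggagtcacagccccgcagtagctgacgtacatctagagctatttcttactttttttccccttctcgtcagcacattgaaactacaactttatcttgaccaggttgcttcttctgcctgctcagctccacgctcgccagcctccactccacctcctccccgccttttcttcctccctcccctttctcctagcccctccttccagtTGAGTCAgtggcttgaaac
Gjc3: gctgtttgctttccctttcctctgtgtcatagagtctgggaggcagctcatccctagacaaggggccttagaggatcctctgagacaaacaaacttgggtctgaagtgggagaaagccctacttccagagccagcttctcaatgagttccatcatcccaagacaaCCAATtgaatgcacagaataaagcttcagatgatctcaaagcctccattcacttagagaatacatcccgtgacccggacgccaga
Panx1: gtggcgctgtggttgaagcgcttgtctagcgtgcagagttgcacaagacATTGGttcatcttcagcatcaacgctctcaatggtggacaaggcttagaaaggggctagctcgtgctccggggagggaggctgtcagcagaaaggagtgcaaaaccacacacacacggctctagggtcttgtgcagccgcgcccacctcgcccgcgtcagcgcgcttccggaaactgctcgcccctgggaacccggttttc
The motifs were searched on both strands in the same window, and the share of all 32817 promoters of this length that hold each is given for comparison. The AP-1 motif, spelled TGANTCA, was found in Gja1 from base 19 to base 13 before the start and in 6.75% of all promoters. The CCAAT box was found from base 85 to base 81 in Gjc3, and on the other strand from base 201 to base 197 in Panx1, and 33.8% of all promoters hold it. An E-box, spelled CANNTG, overlapped the AP-1 match of Gja1, and of the 2 E-boxes of Gjc3 1 overlapped its CCAAT box. E-boxes were found in 66.2% of all promoters and in none of these 250 bases of Panx1. None of the 3 windows held a GC box, spelled GGGCGG (32.7% of all promoters), or a TATA box, spelled TATAAA (12.4%). These matches are letters in a window and were not tested as binding sites.

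Per length, the RNA of the family was mostly that of Gja1 in every ovary. In Control, the mean FPKM (counts per 1000000 counted reads, divided by the gene length in kilobases) was 123.5 ± 8.37 for Gja1 and 18.3 ± 0.723 for Gja4 (SD, n = 4). Panx1 followed at 4.29 ± 0.282 FPKM and Gjc1 at 3.21 ± 0.153 FPKM. These 4 levels did not overlap between genes. Gjc3 (0.752 ± 0.0955 FPKM) and Gja5 (0.514 ± 0.118 FPKM) overlapped each other in Control, and Gjb2 was lowest at 0.178 ± 0.0361 FPKM. In Aged (n = 3), Gjc1 (2.72 ± 0.472 FPKM) and Panx1 (2.47 ± 0.523 FPKM) overlapped, and Gjc3 (0.0517 ± 0.0460 FPKM) lay below Gja5 (0.867 ± 0.239 FPKM) without overlap. In Aged+CF (n = 3), Panx1 and Gjc1 overlapped, as did Gja5 with Gjc3 and Gjc3 with Gjb2.

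**Figure D1:**
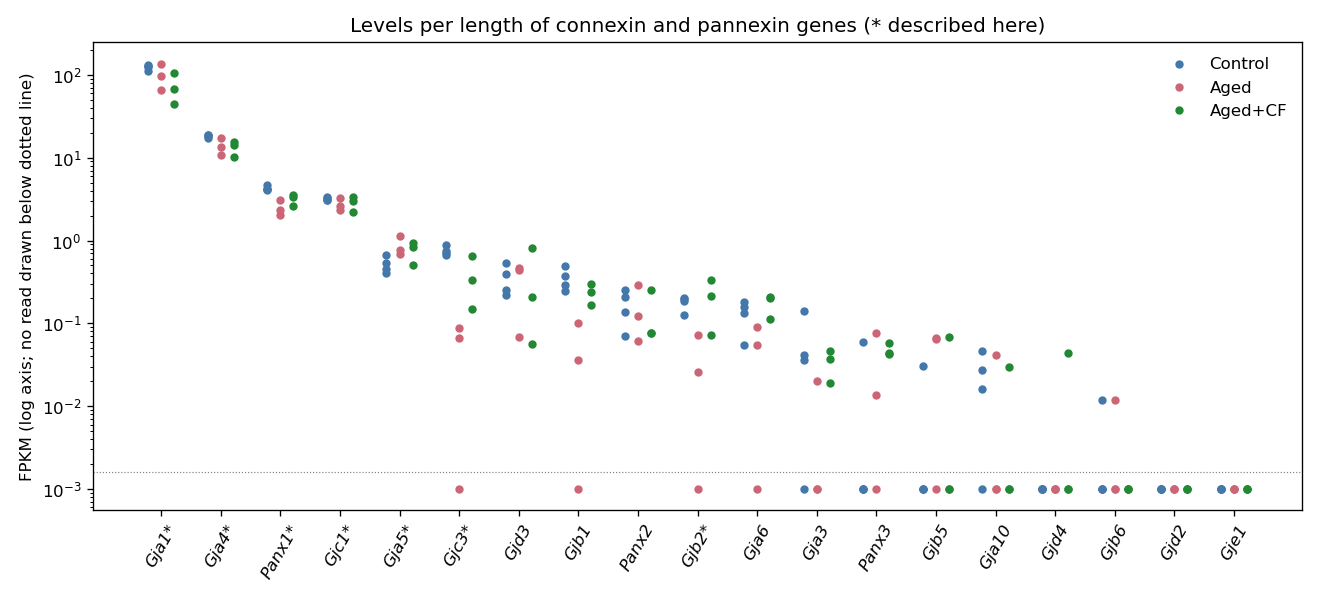
Levels per length of the 7 genes and of other connexin and pannexin genes, in FPKM on a log axis, with 1 point per ovary coloured by group and ovaries without a read drawn below the dotted line. Gja1 is highest in all ovaries (group means of 123.5, 99.8 and 72.2 FPKM for Control, Aged and Aged+CF), and Gja4 is next.

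Gja1 made up 79.4 to 82.2% of the summed connexin FPKM in Control, 76.0 to 84.5% in Aged and 64.7 to 80.3% in Aged+CF. Gja4 made up 11.4 to 13.2% in Control, 10.7 to 12.3% in Aged and 11.6 to 20.8% in Aged+CF. The sum over all connexin genes ranged from 141 to 160.4 FPKM in Control, from 87.4 to 162 FPKM in Aged and from 69.4 to 129.8 FPKM in Aged+CF, so that the Aged and Aged+CF ovaries were spread much more widely than the Control ovaries.

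Gja1, the granulosa connexin, measured 1255, 1447, 1363 and 1483 CPM (counts per 1000000 reads, with libraries scaled by TMM) in Control replicates 31, 32, 33 and 34. It measured 1155, 1822 and 771 CPM in Aged replicates 31, 33 and 34, and 1180, 785 and 521 CPM in Aged+CF replicates 30, 32 and 34. The Aged ovaries lay on both sides of the Control range, while all 3 Aged+CF ovaries lay below it. The fitted log2 fold change was -0.15 (SE 0.31) in Aged vs Control, -0.59 (SE 0.33) in Aged+CF vs Aged and -0.74 (SE 0.31) in Aged+CF vs Control. Without Aged replicate 34, the lowest ovary of its group, the difference of Aged vs Control turned to 0.14, and without replicate 33, the highest, it was -0.49. Summed over 9 granulosa markers, the level was 4472 to 7507 CPM in Control, 3255 to 3875 CPM in Aged and 2449 to 4311 CPM in Aged+CF. These sums were below the Control range in all 3 Aged+CF ovaries, as Gja1 was. They were also below it in all 3 Aged ovaries, where Gja1 was not. For Aged vs Control, 0 of the 9 genes were called by edgeR, 5 were lower at the unadjusted p (9.44% of all genes) and 3 were lower by DESeq2. In the other comparisons, 0 were called by edgeR or by DESeq2. At the unadjusted p, Cyp19a1 and Inha were lower in Aged+CF vs Control (4.36% of all genes). Fshr was higher in Aged+CF vs Aged (3.91%). The part of granulosa cells in the level of Gja1 was not tested. In whole ovaries, fewer cells of a type and less RNA per cell cannot be told apart.

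Gja4, a connexin of the oocyte and granulosa junction, measured 30.3, 31.3, 27.8 and 29.8 CPM in Control replicates 31 to 34. It measured 23.6, 33.5 and 18.1 CPM in Aged replicates 31, 33 and 34, and 25.2, 17.2 and 24.3 CPM in Aged+CF replicates 30, 32 and 34. Replicate 33 was again the highest Aged ovary and replicate 34 the lowest, as for Gja1, and the 3 Aged+CF ovaries again lay below all Control ovaries. The log2 fold change was -0.25 (SE 0.20) in Aged vs Control, -0.17 (SE 0.22) in Aged+CF vs Aged and -0.42 (SE 0.20) in Aged+CF vs Control. Without Aged replicate 33 the difference of Aged+CF vs Aged was 0.09, so that its sign rested on that ovary. The part of any cell type in the level of Gja4 was not tested.

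Gjc3 had the largest fitted differences of the 6 genes that passed the filter on low counts. It measured 3.91, 2.99, 3.09 and 3.34 CPM in Control replicates 31 to 34, from 67, 48, 61 and 63 reads. In Aged replicates 31, 33 and 34 it measured 0.418, 0.353 and 0 CPM, from 7, 5 and 0 reads, and a count of 0 at the depth of replicate 34 allows up to 0.165 per 1000000 reads. In Aged+CF replicates 30, 32 and 34 it measured 1.49, 0.689 and 2.95 CPM, from 26, 12 and 63 reads. The 3 groups did not overlap, with Aged+CF between Aged and Control. Aged+CF replicate 34 (2.95 CPM) lay only just below Control replicate 32 (2.99 CPM), a gap within counting error at 63 and 48 reads. The log2 fold change was -3.70 (SE 0.73) in Aged vs Control, 2.76 (SE 0.76) in Aged+CF vs Aged and -0.95 (SE 0.58) in Aged+CF vs Control. Pooled over ovaries, reads per 1000000 counted were 14.9-fold higher in Control than in Aged, with an exact 95% interval of 8.35 to 29.1, and 7.81-fold higher in Aged+CF over Aged, with an interval of 4.28 to 15.6. These intervals cover counting error only, as do all intervals and floors given here. Leaving out an ovary moved the fitted difference of Aged vs Control to between -4.28 (without Aged replicate 31) and -3.05 (without Aged replicate 34). That of Aged+CF vs Aged went from 2.08 (without Aged+CF replicate 34) to 3.34 (without Aged replicate 31). The difference between Aged+CF and Control was -1.58 without Aged+CF replicate 34 and -0.58 without Aged+CF replicate 32.

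By Gjc3 and by the summed markers of the oocyte, the 3 groups stood in the same order without overlap, for Gjc3 only narrowly between Aged+CF and Control. The sums of markers of glial cells, in which the gene is best known, overlapped between Aged and both other groups. The 12 oocyte markers, among them Zp3, Gdf9 and Bmp15, summed to 462 to 642 CPM in Control, 15.2 to 131 CPM in Aged and 174 to 278 CPM in Aged+CF, and 11 of the 12 were called lower in Aged vs Control. Over the 6 Aged and Aged+CF ovaries, the order by oocyte markers and the order by Gjc3 were the same, from Aged replicate 34 to Aged+CF replicate 34. Within Control the orders differed, as replicate 31 had the lowest sum of markers (462 CPM) and the highest Gjc3 (3.91 CPM), and replicate 32 the highest sum (642 CPM) and the lowest Gjc3 (2.99 CPM). Per 100 CPM of oocyte markers, Gjc3 stood at 0.466 to 0.847 CPM in Control, 0 to 0.320 CPM in Aged and 0.397 to 1.06 CPM in Aged+CF. Aged+CF and Control overlapped on this scale, and the Aged values lay below Control. Those Aged values rest on 7, 5 and 0 reads of Gjc3, the 0 over 15.2 CPM of markers. Counting error was not carried into this scale, so the distance of Aged from Control on it is uncertain. The 9 Schwann and glial markers summed to 78.0 to 128 CPM in Control, 92.9 to 187 CPM in Aged and 145 to 158 CPM in Aged+CF, and 1 of the 7 that were tested was called lower in Aged vs Control. The part of either cell type in the level of Gjc3 was not tested.

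Panx1 measured 27.4, 32.2, 27.5 and 28.4 CPM in Control replicates 31 to 34. It measured 16.8, 16.2 and 21.2 CPM in Aged replicates 31, 33 and 34, and 22.9, 18.4 and 24.7 CPM in Aged+CF replicates 30, 32 and 34. All 6 ovaries of the older mice lay below the Control range, and Aged and Aged+CF overlapped. The log2 fold change was -0.68 (SE 0.14) in Aged vs Control, 0.29 (SE 0.15) in Aged+CF vs Aged and -0.39 (SE 0.14) in Aged+CF vs Control. Without Aged replicate 33 the difference of Aged vs Control was -0.58 and fell below the fold threshold. Unlike Gjc3, Panx1 was not lowest in the Aged ovary with the fewest oocyte markers. Aged replicate 34, at 15.2 CPM of oocyte markers, had the highest Panx1 of its group.

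**Figure D2:**
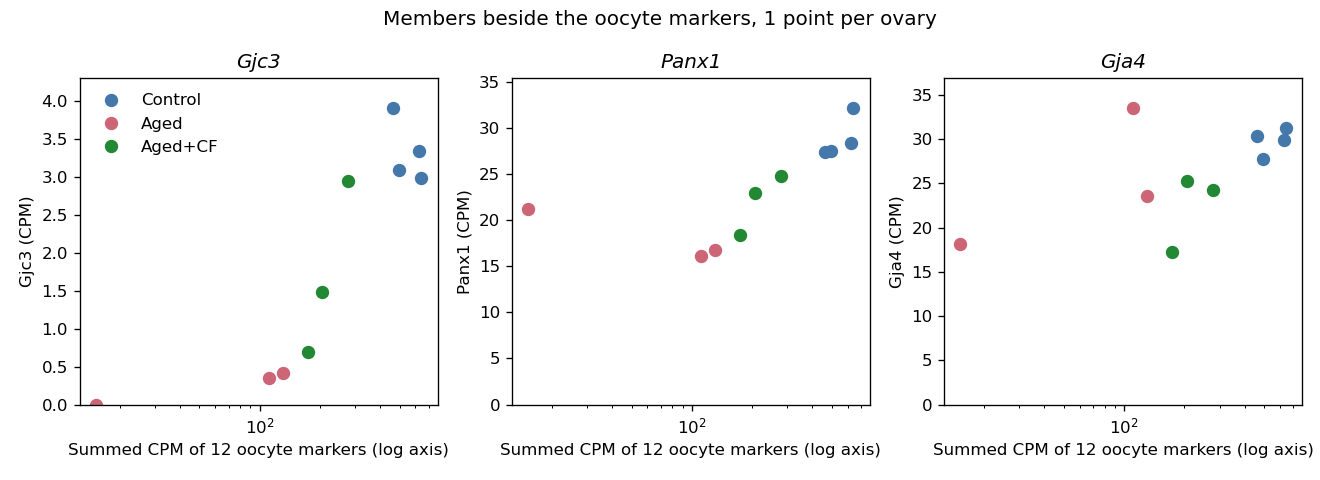
Gjc3, Panx1 and Gja4 in CPM against the summed CPM of 12 oocyte markers on a log axis, with 1 point per ovary coloured by group. Gjc3 goes from 0 to 2.95 CPM in the order of the markers over the 6 Aged and Aged+CF ovaries but not within Control, where the ovary with the fewest markers (462 CPM) has the most Gjc3 (3.91 CPM), and the ovary with 15.2 CPM of markers keeps 21.2 CPM of Panx1 and 18.1 CPM of Gja4.

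Gja5, the arterial connexin, went the other way. It measured 3.62, 2.81, 4.56 and 3.13 CPM in Control replicates 31 to 34, 5.67, 9.31 and 4.91 CPM in Aged replicates 31, 33 and 34, and 6.42, 3.62 and 5.86 CPM in Aged+CF replicates 30, 32 and 34. Each Aged ovary exceeded each Control ovary, and Aged+CF overlapped both groups. The log2 fold change was 0.90 (SE 0.29) in Aged vs Control, -0.32 (SE 0.31) in Aged+CF vs Aged and 0.58 (SE 0.29) in Aged+CF vs Control. Without Aged replicate 33, the difference of Aged vs Control was 0.61 and that of Aged+CF vs Aged was 0.00. The 6 arterial endothelial markers summed to 79.2 to 85.9 CPM in Control, 94.3 to 122 CPM in Aged and 72.1 to 99.6 CPM in Aged+CF, and 1 of the 6 was called higher in Aged vs Control. The 7 endothelial markers summed to 408 to 485, 575 to 710 and 483 to 544 CPM in the same order, with 4 of the 7 called higher in Aged vs Control. The part of endothelial cells in the level of Gja5 was not tested.

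Gjc1 differed least between groups. It measured 20.7, 20.1, 18.8 and 18.7 CPM in Control replicates 31 to 34, 16.9, 16.9 and 20.5 CPM in Aged replicates 31, 33 and 34, and 20.7, 13.9 and 18.9 CPM in Aged+CF replicates 30, 32 and 34. The 3 groups overlapped, and the log2 fold change was -0.11 (SE 0.15) in Aged vs Control, -0.02 (SE 0.16) in Aged+CF vs Aged and -0.13 (SE 0.15) in Aged+CF vs Control. Without Aged+CF replicate 32, the lowest ovary, both differences of Aged+CF turned positive, to 0.13 against Aged and 0.02 against Control. The 6 smooth muscle markers summed to 1610 to 2012 CPM in Control, 1046 to 2596 CPM in Aged and 1000 to 1554 CPM in Aged+CF.

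Gjb2 was close to the limit of detection and did not pass the filter on low counts. It had 5, 7, 9 and 9 reads in Control replicates 31 to 34, 3, 1 and 0 reads in Aged replicates 31, 33 and 34, and 3, 14 and 11 reads in Aged+CF replicates 30, 32 and 34. Aged and Control did not overlap, whereas Aged+CF replicate 30 had no more reads than Aged replicate 31. Pooled over ovaries, reads per 1000000 counted were 5.59-fold higher in Control than in Aged (30 and 4 reads, exact 95% interval of 1.97 to 21.8) and 6.49-fold higher in Aged+CF over Aged (28 and 4 reads, interval of 2.27 to 25.5). The ratio of Aged+CF to Control was 1.16, with an interval of 0.668 to 2.01.

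**Figure D3:**
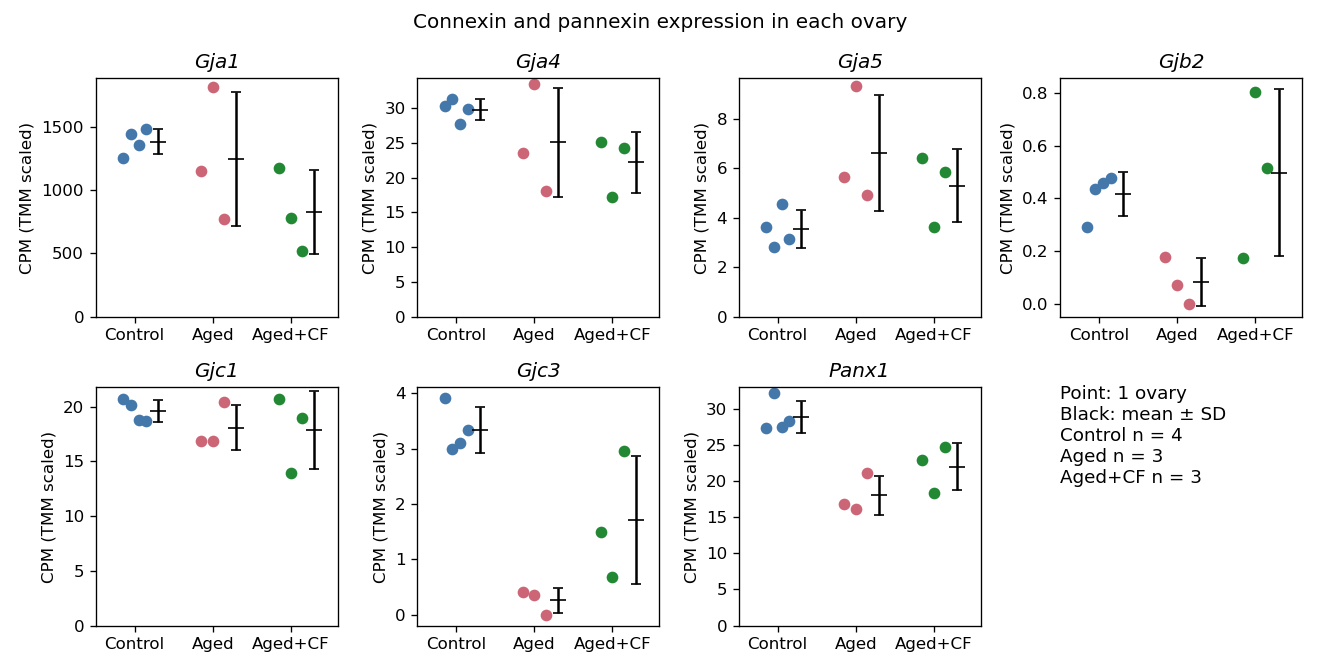
CPM of the 7 genes in each ovary, with 1 panel per gene, coloured points for ovaries and a black mark with whiskers for the group mean ± SD. The groups are apart in the panel of Gjc3 (3.33 ± 0.411, 0.257 ± 0.225 and 1.71 ± 1.15 CPM for Control, Aged and Aged+CF), only narrowly between Aged+CF and Control. They overlap in that of Gjc1.

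Of the 7 genes, 6 passed the filter on low counts and 2 of them, Gjc3 and Panx1, were called lower in Aged vs Control, which required a 1.5-fold difference and a Benjamini-Hochberg adjusted p under 0.05 in edgeR's quasi-likelihood test. Over all 18956 genes tested, 6.06% were called lower and 5% higher. At the unadjusted p the same 2 genes were lower (9.44% of all genes) and Gja5 was higher (8.79%). DESeq2 called the same 3 genes in the same directions. Shares over all genes are given here for edgeR only, so DESeq2 calls stand without one. Gja5 was called in 2 of 16 settings, by DESeq2 and without Aged replicate 34. Counting all 7 genes by ovaries that do not overlap, Gjb2, Gjc3 and Panx1 were lower (15.6% of all genes tested) and Gja5 was higher (11.8%). As these values were in view when the genes were chosen, nothing is read from their number.

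In Aged+CF vs Aged, 0 of the 6 genes were called by edgeR, against 0.00528% of all genes, which is 1 gene. At the unadjusted p, Gjc3 was higher (3.91% of all genes), and DESeq2 also called Gjc3. Gjc3 was also the 1 of the 7 genes whose Aged+CF ovaries all exceeded the Aged ovaries (10.2% of all genes tested). In Aged+CF vs Control, 0 of the 6 genes were called by edgeR, against 0.179% of all genes, and 0 by DESeq2. At the unadjusted p, Gja1 was lower (4.36% of all genes). Gja1, Gja4, Gjc3 and Panx1 were lower without overlap (12.2% of all genes tested), Gjc3 only narrowly. For Aged vs Control the median log2 fold change of the 6 genes was -0.20, against -0.09 for Aged+CF vs Aged and -0.41 for Aged+CF vs Control, while that of all genes tested lay between -0.03 and 0.00.

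**Figure D4:**
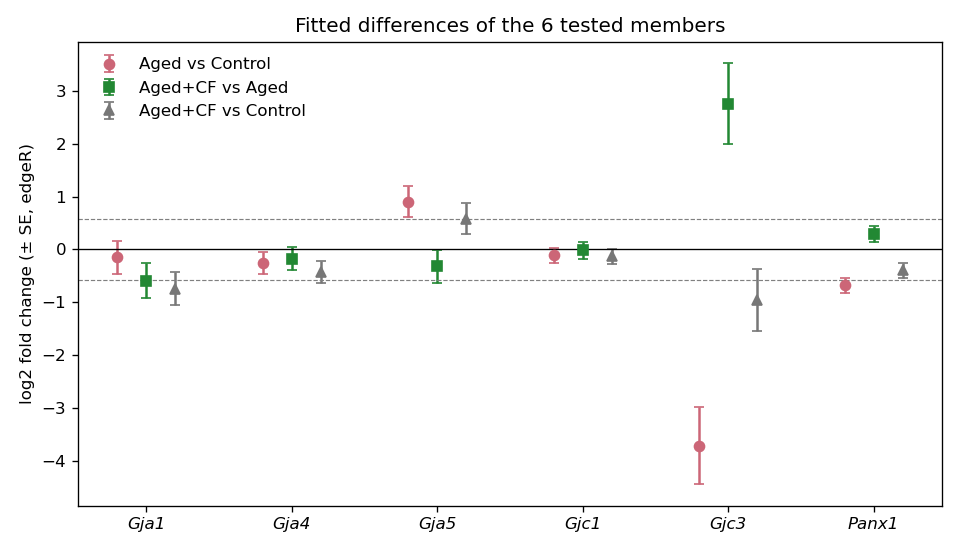
Fitted log2 fold changes of the 6 genes that passed the filter, with whiskers for the SE, 1 colour per comparison and dashed lines at a fold change of 1.5. Gjc3 stands out at -3.70 for Aged vs Control and at 2.76 when Aged+CF is set against Aged, and the other 5 genes lie between -0.74 and 0.90.

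Of the remaining 16 genes of the family, 2 passed the filter on low counts. Panx2, a pannexin known from the brain, was among them, with 6 to 32 reads per ovary. By edgeR, by the unadjusted p and by DESeq2, 0 of these 2 genes were called in any comparison. Gjb1 (Cx32), a connexin of liver and Schwann cells, had 14, 10, 8 and 9 reads in Control replicates 31 to 34, 3, 1 and 0 in Aged replicates 31, 33 and 34, and 7, 5 and 11 in Aged+CF replicates 30, 32 and 34. Gjb1 was thus lower in each Aged ovary than in any ovary of the other groups, as Gjb2 was against Control. Over all genes tested, 15.6% were lower in Aged than in Control without overlap. Aged+CF was higher than Aged without overlap in 10.2%. Gjb1 did not pass the filter and is not among the genes tested. Pooled, reads per 1000000 counted of Gjb1 were 7.64-fold higher in Control than in Aged (exact 95% interval of 2.77 to 29.4) and 5.33-fold higher in Aged+CF over Aged (interval of 1.82 to 21.2). Gja3, Gja6 and Gjd3 had at most 12 reads in any ovary, and Gja10, Gjb5, Gjb6, Gjd4 and Panx3 at most 5. No read of Gjd2 or Gje1 was counted in the 10 ovaries.

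Around the gap junction, 24 genes of proteins that bind, anchor, modify or turn over connexins were all tested. In Aged vs Control 1 rose and 1 fell, against 5% and 6.06% of all genes tested. Cdh2, the N-cadherin that joins granulosa cells, measured 73.0 ± 3.37 CPM in Control, 42.1 ± 6.60 CPM in Aged and 66.0 ± 9.35 CPM in Aged+CF. It fell by 0.79 on the log2 scale in Aged vs Control (SE 0.13, edgeR adjusted p = 0.0068). Mapk3, the kinase ERK1, measured 158 ± 8.69 CPM in Control, 272 ± 72.8 CPM in Aged and 179 ± 12.1 CPM in Aged+CF, and rose in Aged vs Control by 0.79 on the log2 scale (SE 0.16, edgeR adjusted p = 0.0132). In neither gene did Aged overlap with Control or Aged+CF. Over all genes tested, Aged was lower than Control without overlap in 15.6% and higher in 11.8%. For Aged+CF vs Aged, edgeR called 0 of the 24 genes. Cdh2 was higher with a log2 fold change of 0.65 (SE 0.13, edgeR adjusted p = 0.151). At the unadjusted p Cdh2 passed as higher (3.91% of all genes) and Mapk3 as lower (4.05%), as both did by DESeq2. Between Aged+CF and Control, 0 of the 24 genes were called by edgeR, at the unadjusted p or by DESeq2, and the smallest p was that of Wwp1, a ubiquitin ligase (log2 fold change 0.47, SE 0.10, edgeR adjusted p = 0.109). The median log2 fold change of the 24 genes was 0.12 for Aged vs Control, 0.00 for Aged+CF vs Aged and 0.10 when Aged+CF was set against Control. This list and those of the cyclic nucleotide and purinergic genes were chosen with earlier results of these data known. The p values of their genes are therefore given as a description.

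Of 14 genes for the cyclic nucleotides of meiotic arrest, 13 were tested. In Aged vs Control 3 fell and 0 rose, against 6.06% and 5% of all genes tested. By the unadjusted p 4 fell and 0 rose, against 9.44% and 8.79% of all genes, and by DESeq2 the same 3 fell. Gpr3, the oocyte receptor that keeps cAMP high, measured 1.87 ± 0.557 CPM in Control, 0.356 ± 0.120 CPM in Aged and 0.848 ± 0.242 CPM in Aged+CF. The 3 groups of Gpr3 did not overlap, and 15.6% of all genes tested were lower in Aged than in Control without overlap. Gpr3 fell by 2.38 on the log2 scale in Aged vs Control (SE 0.38, edgeR adjusted p = 0.00677), from 5, 7 and 5 reads in Aged replicates 31, 33 and 34. The 12 oocyte markers summed to 462 to 642 CPM in Control, 15.2 to 131 CPM in Aged and 174 to 278 CPM in Aged+CF. The part of oocytes in the level of Gpr3 was not tested. Nppc, the granulosa ligand whose receptor makes cGMP, measured 28.2 ± 5.78 CPM in Control, 16.3 ± 3.51 CPM in Aged and 15.3 ± 3.92 CPM in Aged+CF, and fell by 0.79 on the log2 scale in Aged vs Control (SE 0.23, edgeR adjusted p = 0.0441). Its call held in 6 of the 16 settings tried, and was lost without any 1 of Control replicates 32, 33 and 34, Aged replicates 31 and 33 and Aged+CF replicates 30 and 34. Prkar2b, a regulatory subunit of protein kinase A, measured 431 ± 37.3 CPM in Control, 253 ± 20.6 CPM in Aged and 273 ± 85.6 CPM in Aged+CF. It fell by 0.77 on the log2 scale in Aged vs Control (SE 0.20, edgeR adjusted p = 0.0295), a call that held in 9 of 16 settings and was lost without any 1 Control ovary and without Aged replicate 31 or 33. In Aged+CF vs Aged, 0 of the 13 genes were called by edgeR or DESeq2. Gpr3 was higher at the unadjusted p, as were 3.91% of all genes (log2 fold change 1.26, SE 0.41, edgeR adjusted p = 0.205). Between Aged+CF and Control, 0 were called by edgeR, 3 were lower at the unadjusted p (4.36% of all genes) and 2 by DESeq2 (Nppc and Prkar2b). Nppc had a log2 fold change of -0.88 (SE 0.23, edgeR adjusted p = 0.15). The median over the 13 genes was -0.05, 0.07 and 0.01 in the 3 comparisons, taken in the same order.

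Of 25 purinergic genes, which encode receptors and enzymes for extracellular ATP and adenosine, 21 were tested. In Aged vs Control 3 rose and 0 fell, against 5% and 6.06% of all genes tested. By the unadjusted p 4 rose and 0 fell, against 8.79% and 9.44% of all genes, and DESeq2 called 4 higher. P2rx1, an ATP-gated channel, measured 0.944 ± 0.222 CPM in Control, 2.77 ± 0.182 CPM in Aged and 1.56 ± 0.338 CPM in Aged+CF. The 3 groups of P2rx1 did not overlap, and 11.8% of all genes tested were higher in Aged than in Control without overlap. P2rx1 rose in Aged vs Control by 1.55 on the log2 scale (SE 0.26, edgeR adjusted p = 0.00764). Entpd1, the ATP-cleaving enzyme CD39, measured 74.5 ± 11.7 CPM in Control, 134 ± 12.6 CPM in Aged and 129 ± 45.9 CPM in Aged+CF, and rose in Aged vs Control by 0.85 (SE 0.21, edgeR adjusted p = 0.0253). Adora1, an adenosine receptor, measured 54.0 ± 7.25 CPM in Control, 91.6 ± 5.15 CPM in Aged and 75.1 ± 26.0 CPM in Aged+CF, and rose in Aged vs Control by 0.76 (SE 0.19, edgeR adjusted p = 0.0286). The calls of Entpd1 and Adora1 held in 11 and 10 of 16 settings, and both were lost without Control replicate 32 or 34 and without Aged replicate 31 or 33, that of Adora1 also without Control replicate 31. In Aged+CF vs Aged, 0 of the 21 genes were called by edgeR. At the unadjusted p, P2rx1 and Ada were lower, as were 4.05% of all genes. Ada, which breaks down adenosine, had a log2 fold change of -1.04 (SE 0.32, edgeR adjusted p = 0.196), and DESeq2 called Ada alone. Between Aged+CF and Control, 0 were called by edgeR, and at the unadjusted p 3 were higher (3.33% of all genes) and 1 lower (4.36%). DESeq2 called Entpd1, whose log2 fold change was 0.80 (SE 0.21, edgeR adjusted p = 0.152). The median over the 21 genes was 0.49, -0.16 and 0.13 in the 3 comparisons, taken in the same order. Beside these genes, the 5 macrophage markers summed to 193 to 220 CPM in Control, 248 to 425 CPM in Aged and 247 to 319 CPM in Aged+CF, with 1 of the 5 called higher in Aged vs Control. The part of macrophages in the purinergic genes was not tested.

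**Figure D5:**
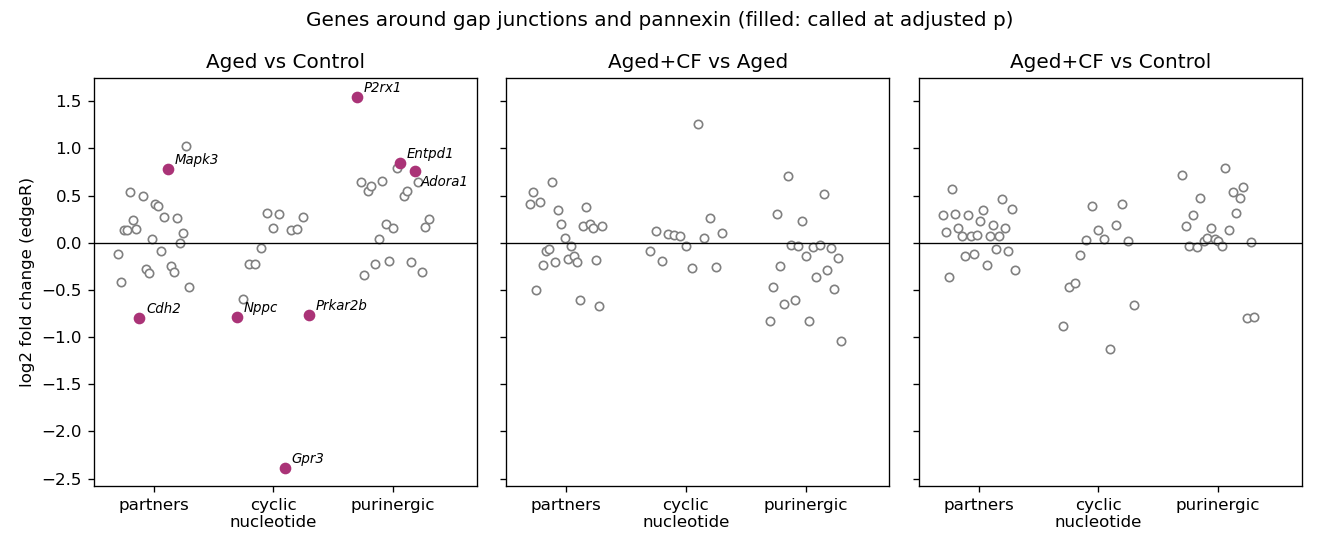
Log2 fold changes of the tested gap junction partner, cyclic nucleotide and purinergic genes, 1 point per gene and 1 panel per comparison, with filled points for genes called at the adjusted p. The 8 filled points all lie in Aged vs Control, from -2.38 for Gpr3 to 1.55 for P2rx1.

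The genes with the most similar pattern to each connexin or pannexin over the 10 ovaries were ranked by the root mean square difference of log2 CPM, each gene centred on its mean, among 16743 genes. For Gjc3, whose own root mean square spread was 1.62, the nearest were Klf17 and D6Ertd527e, both at 0.362, and Nlrp9b at 0.363. Nlrp9b, of an oocyte gene family, measured a mean of 12.7 CPM in Control, 1.65 CPM in Aged and 5.17 CPM in Aged+CF. For Panx1, with a spread of 0.323, they were Tle4 (0.0517), Dnajc27 (0.066) and Aldh18a1 (0.0696). For Gja5, with a spread of 0.492, they were Dusp16 (0.205), the arterial Notch ligand Dll4 (0.224) and the endothelial matrix gene Mmrn2 (0.236), and Dll4 measured a mean of 15.4 CPM in Control, 23.5 CPM in Aged and 20.8 CPM in Aged+CF. For Gja4, with a spread of 0.307, the nearest included Snhg8 (0.0771) and Rnaseh2b (0.1). For Gjc1, with a spread of 0.171, they were Fancc (0.0817), Grk6 (0.0891) and Rbms1 (0.0952), so that a gene of little change had neighbours of little change. For Gja1, with a spread of 0.518, they were Gm19531 (0.245), Gm17705 (0.253) and Tmem229b (0.276). These distances are descriptions over 10 ovaries that share group and depth, and no p is attached to them.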

How the data were processed

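RNA of 10 mouse ovaries was analysed, grouped by their labels, with the replicate numbers of the titles. The authors deposited unnormalized counts of reads and FPKM values for each gene, in which the count is divided by a gene length common to all ovaries and by the total count. The submitters' processing notes name TopHat, Cufflinks 2.1.1 and GRCm38.p4. The annotation, counting tool and strand setting are not given in the sources used here. Near-identical copies of a gene would share reads, and counts of genes that overlap on opposite strands are uncertain.

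Counts were fitted with edgeR 4.0.16 in R 4.3.3, using its filter on low counts by group (18956 genes kept of 55487, of which 18869 had no count), TMM scaling and a quasi-likelihood test with a mean per group over all 10 ovaries, whose spread the groups then share. A call required a 1.5-fold difference and a Benjamini-Hochberg adjusted p under 0.05 over all genes tested. The series text gives the unadjusted p, which was also computed. Tests are two-sided. The p values measure the spread between these ovaries. Ratios of pooled reads carry exact 95% intervals, a count of 0 allows up to 3 counts, and both cover counting error only. The fit was tested on simulated data. The 12 pairs of ovaries of the same group were checked for duplicate libraries, and none was found.

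The 7 genes and all gene lists were chosen with earlier results of these data known. Named are the 7 genes, the other connexins and pannexins, up to 3 called genes of each direction and list (or the gene with the smallest p where none was called), genes overlapping one of the 7, and the 3 genes nearest in pattern among genes of at least 1 CPM (log2 CPM with a prior count of 2). Other genes are named as markers, or where they account for a small count. The alternatives tried were the unadjusted p, no filter, DESeq2 1.42.0 size factors, its Wald test, only the compared groups, the replicate number as a block, and leaving out each ovary in turn. Some genes that this rule names are not reported here.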

Additional observations from a re-analysis of the deposited data

Results flagged for a closer look

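In Panx3, a gene of the family, 1 of the 4 Control ovaries lay apart from the other 3. Panx3 measured 0.2334 CPM in Control replicate 31, from 4 reads, and had no read in the other 3. It was also read in some Aged and Aged+CF ovaries, at up to 5 reads, and did not pass the filter on low counts. With no read in the other 3 ovaries, the gap is the whole range of the group for any count in the fourth, so this says no more than that 4 reads fell in 1 ovary. Gjb5 and Gjb6, for example, also had 1 read in 1 Control ovary and none in the other 3. The usual rate of about 1 in 20 groups with an ovary set apart by chance does not hold where most ovaries have no read. None of the 7 genes described had such an ovary in Control, and groups of 3 were not examined in this way.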

How the results depend on the processing

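The count of called genes in Aged+CF vs Aged rested on the tool and on Aged replicate 34. Gjc3 and Panx1 in Aged vs Control were called in 15 and 14 of 16 settings. These settings refit the same ovaries, whose values were in view when the genes were chosen, so they are given as a description. At the unadjusted p, 3456 genes were called for Aged vs Control, 1509 for Aged+CF vs Aged and 1457 between Aged+CF and Control, with 1 of the 7 genes in each of the last 2 (Gjc3 and Gja1). Without the filter, Gjb1 was called in Aged vs Control (1 of the 16 other family genes), and 2 genes in all in Aged+CF vs Aged. By DESeq2's Wald test 442 genes were called in Aged+CF vs Aged, with 1 of the 7 (Gjc3), and 528 in Aged+CF vs Control. When the fit held just the groups compared, these counts were 2 and 487. The cause of these changes was not tested.

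Same-numbered ovaries did not deviate together (correlations of -0.185 to 0.153 over 6 pairs), so the numbers are not taken as a pairing. With the replicate number as a block, 80, 0 and 9 genes were called in the 3 comparisons and 0 of the 7 genes in Aged vs Control, and Aged+CF replicate 30, alone with its number, drops out of that fit in effect. Leaving out an ovary gave 1081 to 3112 genes in Aged vs Control (lowest without Control replicate 32), 1 to 556 for Aged+CF vs Aged and 7 to 348 between Aged+CF and Control, both highest without Aged replicate 34. It gave 1 to 3 of the 7 genes in Aged vs Control (1 without Aged replicate 33, 3 with Gja5 without Aged replicate 34) and 0 in the other comparisons, and 0 to 1 of the other family genes (Gjb1). No called value reversed. Depth limits Gjb1 and Gjb2, at 4 reads each over the 3 Aged ovaries.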

Other observations

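Set against the oocyte markers, Gja4 and Panx1 gave another order of groups than they did per library. Per 100 CPM of the 12 oocyte markers, Gja4 stood at 4.76 to 6.57 CPM in Control, 18.1, 30.1 and 119 CPM in Aged replicates 31, 33 and 34, and 8.74 to 12.3 CPM in Aged+CF. Panx1 stood at 4.53 to 5.94 CPM in Control, 12.9, 14.5 and 139 CPM in the same Aged ovaries, and 8.90 to 11.2 CPM in Aged+CF. For both genes the 3 groups did not overlap on this scale, with Aged highest, and the highest value in each was that of the ovary with 15.2 CPM of oocyte markers. These values are a description, since the markers themselves differed between the groups, by more than either gene did per library. The markers summed to 462 to 642 CPM in Control, 15.2 to 131 CPM in Aged and 174 to 278 CPM in Aged+CF. The order of groups on this scale is thus set largely by the markers.

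In other tissues of the ovary, 4 of the 6 theca and interstitial markers and 3 of the 3 corpus luteum markers were called higher in Aged vs Control. Theca and interstitial markers summed to 6182 to 10721 CPM in Control, 14756 to 31171 CPM in Aged and 12416 to 16887 CPM in Aged+CF. Corpus luteum markers summed to 493 to 1420 CPM, 1445 to 5783 CPM and 1880 to 5425 CPM in the same order. Markers of the oviduct, which lies beside the ovary, ranged from 13.3 to 371 CPM within Control and from 6.49 to 348 CPM within Aged, against 28.1 to 77.9 CPM in Aged+CF. Surface epithelium markers summed to 108 to 246, 48.9 to 334 and 145 to 299 CPM in Control, Aged and Aged+CF, and adipocyte markers to 16.6 to 68.0, 28.8 to 80.9 and 30.5 to 33.4 CPM.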
